A study of Homo sapiens with 12 samples.

Results

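The step from the low to the medium dose of a water extract of Aconitum carmichaeli Debeaux (ACD) was examined in HT29 cells, an established human colorectal adenocarcinoma line. ACD, or aconite, is an herb known for its diterpenoid alkaloids. Gene expression was measured by RNA sequencing in 12 libraries of HT29 cells, of which 3 had received 100 µg/mL (medium dose) and 3 had received 20 µg/mL (low dose). The dose and replicate named in the sample labels decided which libraries were used, and no measured value did. All 6 libraries came from cells harvested after 24 h, and the extract was dissolved in phosphate-buffered saline with 2% DMSO, which the vehicle wells of the series also received. The 3 vehicle libraries are given only to place the levels, and the 500 µg/mL libraries were left out of the fit. The sample labels name ACD in the titles and doses, whereas their note on preparation describes Poria cocos, a fungus, and the former were followed here. Of the 60675 genes in the deposited table, 15041 had enough counts to be tested, and these are the members described. No source says that replicates were separate cultures, so the p-values measure the spread between these libraries, which may be technical.

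The libraries held 21454319 to 29876704 expected counts (RSEM's estimate of the reads of each gene). Levels are given as CPM, counts scaled to a common library size, on a common scale. The biological coefficient of variation was 5.08%, and the median standard error of a log2 fold change was 0.06 over the 10657 genes with a mean over 5 CPM. In a principal component analysis the first component held 27.4% of the variance, and low-dose replicate 3 lay at 26.1 on it while the other 5 libraries lay between −16.1 and 4.90. All 13 markers of colonic epithelium passed the filter on low counts, as the label of a colorectal line implies. They summed to 12398 to 13601 CPM at the low and 12073 to 13227 CPM at the medium dose. Which colorectal line the cells were was not tested. Markers of glia and neurons summed to 0.217 to 0.368 CPM at the low and 0.168 to 0.425 CPM at the medium dose, with S100B, AQP4, OLIG2 and SNAP25 at 0 in all 6 libraries. The fibroblast list summed to at most 2.74 CPM and the endothelial list to at most 4.39 CPM in any of the 6 libraries, and COL1A2, DCN and PDGFRA were at 0. The leukocyte list reached 1554 to 1684 CPM at the low and 1459 to 1637 CPM at the medium dose almost entirely through LYZ, which codes for lysozyme and is also made by intestinal epithelium, while MS4A1 was at 0.

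HT29 cells carry several sensors of foreign chemicals. The aryl hydrocarbon receptor (AhR) binds planar ligands and then switches on CYP1A1, CYP1B1 and TIPARP by way of DNA elements with the core GCGTG. The factor NRF2 escapes degradation when cells meet electrophiles or oxidants and drives genes that make glutathione, recycle thioredoxin and detoxify aldehydes and quinones through antioxidant response elements, whose core is written TGACNNNGC. Genes such as NQO1 and the UGT1A conjugating enzymes respond to both. NF-kB, in turn, drives chemokines by which colonic epithelium calls in neutrophils.

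At an adjusted p under 0.05 in edgeR's quasi-likelihood test, 154 of the 15041 genes differed between the doses (1.02%), of which 88 were higher at the medium dose (0.585%) and 66 lower (0.439%). Among them 33 also passed a 1.5-fold minimum and are called DEGs (0.219%), 25 upregulated (0.166%) and 8 downregulated (0.0532%). The libraries of the doses did not overlap for any of the 154 genes, as for 13.9% of all genes tested. Where a lack of overlap is given below for a called gene, it does not set that gene apart from the other called genes. Without low replicate 3, which stood apart, 163 genes were called (90 up, 73 down), 124 of them among the 154, and 32 were DEGs. Most of the differences were small, with a median fold of 1.31 in either direction, and 103 of the 154 were under 0.5 on the log2 scale. All 10 genes with an absolute log2 fold change over 1 among the 154 were upregulated. The upregulated genes had a median log2 fold change of 0.41 and reached 4.56, whereas the downregulated genes had a median of −0.37 and reached −0.92. Over all genes tested the median was −0.0012, with quartiles of −0.07 and 0.06. By biotype the 154 genes held both mitochondrial rRNAs, 77 upregulated and 59 downregulated of 12332 protein-coding genes, and 8 upregulated and 6 downregulated of 1655 lncRNAs.

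**Figure D1:**
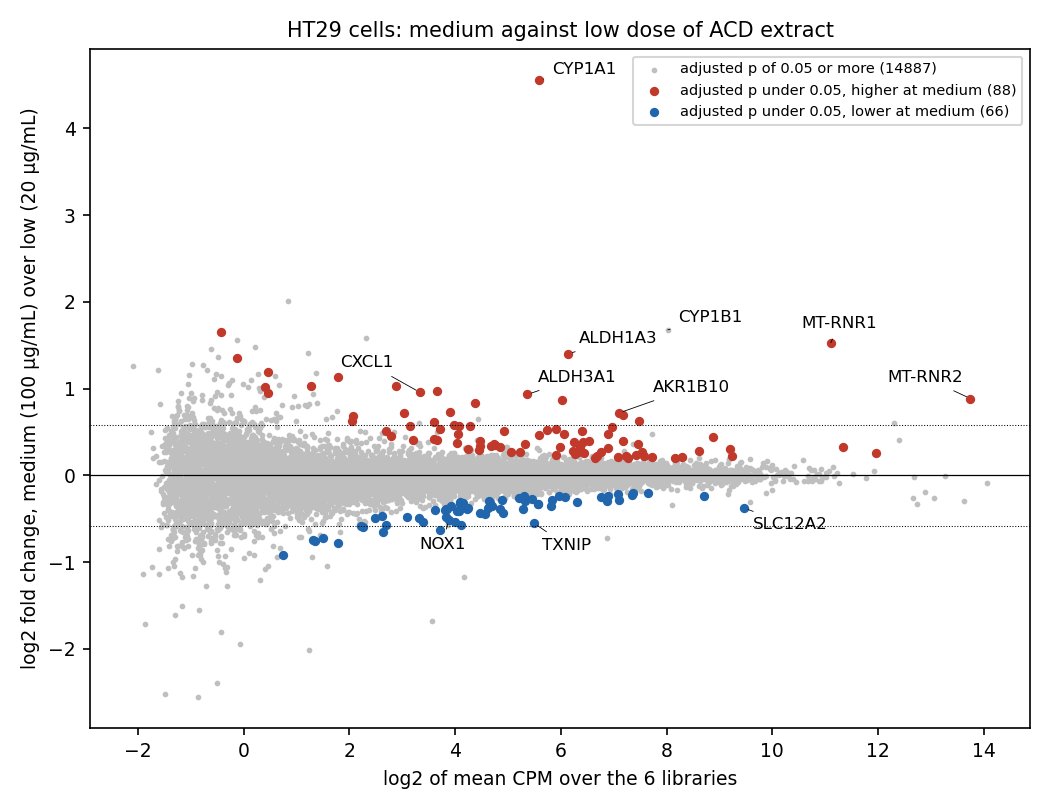
Each point is one of the 15041 genes, placed by its mean level (log2 CPM over the 6 libraries, x axis) and its log2 fold change of the medium against the low dose (y axis), and the coloured points are the 88 upregulated and 66 downregulated genes at an adjusted p under 0.05 (dotted lines, 1.5-fold). CYP1A1, at 4.56, stands far above every other gene, and no coloured point lies below −0.92.

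The promoters of 5 upregulated genes are shown because AhR and NRF2, whose targets are described next, are known to bind at these DNA cores. They were picked as windows that hold a core, and ALDH1A3 is in neither the AhR nor the NRF2 target list. Each window runs from 250 bases before to 50 bases after the RefSeq start (GRCh38.p14) and is written 5′ to 3′ on the gene's strand, with capitals marking GCGTG or TGACNNNGC on either strand (those on the opposite strand appear as their reverse complement). The windows lie at chr15:74725479-74725778 on the minus strand for CYP1A1, chr3:156674340-156674639 on the plus strand for TIPARP, chr15:100879581-100879880 on the plus strand for ALDH1A3, chr12:104215529-104215828 on the plus strand for TXNRD1 and chr1:93909381-93909680 on the minus strand for GCLM.
CYP1A1: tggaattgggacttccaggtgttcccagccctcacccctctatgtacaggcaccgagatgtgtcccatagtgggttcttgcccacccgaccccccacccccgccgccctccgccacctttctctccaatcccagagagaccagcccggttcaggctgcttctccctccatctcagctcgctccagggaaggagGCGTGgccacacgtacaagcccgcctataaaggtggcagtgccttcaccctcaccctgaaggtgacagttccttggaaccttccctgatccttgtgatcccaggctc
TIPARP: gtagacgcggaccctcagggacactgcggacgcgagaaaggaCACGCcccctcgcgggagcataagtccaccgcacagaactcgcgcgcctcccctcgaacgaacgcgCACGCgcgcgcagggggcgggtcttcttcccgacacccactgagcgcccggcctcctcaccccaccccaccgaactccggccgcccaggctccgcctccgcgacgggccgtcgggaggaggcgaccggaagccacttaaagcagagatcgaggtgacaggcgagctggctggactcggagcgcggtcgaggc
ALDH1A3: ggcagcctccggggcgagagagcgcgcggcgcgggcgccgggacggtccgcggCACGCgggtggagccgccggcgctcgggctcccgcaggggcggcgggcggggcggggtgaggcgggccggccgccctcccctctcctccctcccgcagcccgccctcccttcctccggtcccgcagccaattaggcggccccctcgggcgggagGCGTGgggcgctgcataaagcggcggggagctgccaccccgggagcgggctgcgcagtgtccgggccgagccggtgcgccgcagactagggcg
TXNRD1: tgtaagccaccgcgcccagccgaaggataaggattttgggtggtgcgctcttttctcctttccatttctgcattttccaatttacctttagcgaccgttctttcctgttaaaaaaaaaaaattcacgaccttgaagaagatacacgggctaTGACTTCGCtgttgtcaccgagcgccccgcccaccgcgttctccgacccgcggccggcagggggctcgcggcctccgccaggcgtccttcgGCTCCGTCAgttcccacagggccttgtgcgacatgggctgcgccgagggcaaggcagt
GCLM: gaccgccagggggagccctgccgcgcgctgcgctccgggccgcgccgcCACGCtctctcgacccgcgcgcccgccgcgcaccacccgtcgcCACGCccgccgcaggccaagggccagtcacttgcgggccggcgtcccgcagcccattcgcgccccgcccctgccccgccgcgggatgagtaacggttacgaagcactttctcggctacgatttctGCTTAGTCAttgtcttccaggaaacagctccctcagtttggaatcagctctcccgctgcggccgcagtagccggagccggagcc
CYP1A1 held 1 GCGTG, TIPARP and ALDH1A3 2 each, TXNRD1 2 TGACNNNGC, and GCLM 2 GCGTG and 1 TGACNNNGC. A match is a run of letters and not a binding site. Over the 10676 tested genes with a window, 50.4% held GCGTG and 15.2% held TGACNNNGC. Of the 65 upregulated genes with a window 31 (47.7%) held GCGTG and 8 (12.3%) TGACNNNGC, and of the 50 downregulated ones 21 (42.0%) and 5 (10.0%) did, so neither core was more frequent in these windows than over all genes. Of the called AhR targets, 4 had a window and all 4 held GCGTG, while of the called NRF2 targets 11 had a window and 3 held TGACNNNGC.

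Among AhR targets CYP1A1 was upregulated by far the most. Of the 13 AhR targets tested, 6 were upregulated and none was downregulated (0.585% and 0.439% over all genes tested). Of the 6, 3 were DEGs, and the list's median log2 fold change was 0.28. This list, like the others, was chosen with earlier results of these data known, so its counts are a description. Without low replicate 3, 5 of the 13 were upregulated, with CYP1A1 no longer called. In 9 of the 13 every medium library lay above every low library, which held for 6.68% of all genes tested. CYP1A1 (ENSG00000140465, chr15:74719542-74725536), a monooxygenase that oxidises polycyclic aromatic compounds, stood at 6.0, 2.24 and 3.40 CPM at the low dose and at 87.4, 93.1 and 97.1 CPM at the medium dose. The medium libraries lay close together, and the low libraries, all far below them, varied more. Its level was 23.5-fold higher at the medium dose (log2 fold change 4.56, SE 0.27, edgeR adjusted p = 0.00879), and at least 62 counts lay behind each of the 6 values. In edgeR the call rested on single libraries: the adjusted p was 0.0640, 0.0660 or 0.0859 without medium replicate 1, 2 or 3, 0.0516 without low replicate 3, 4.06e-06 without low replicate 2 and 2.95e-16 without low replicate 1, with log2 fold changes from 4.26 to 5.07. The adjusted p was 1.15e-25 in DESeq2 and 1.19e-04 in edgeR with the vehicle libraries in the fit.

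TIPARP, an ADP-ribosyltransferase that feeds back on AhR, stood at 125, 99.2 and 109 CPM at the low dose and at 175, 181 and 182 CPM at the medium dose, a 1.61-fold difference (log2 fold change 0.69, SE 0.07, edgeR adjusted p = 2.13e-05). ALDH3A1, which oxidises aromatic and fatty aldehydes, rose from 27.4, 27.9 and 29.9 CPM to 53.2, 54.3 and 55.1 CPM (log2 fold change 0.93, SE 0.06, edgeR adjusted p = 4.32e-09). The groups did not overlap in either gene, and the spread within each dose was a small part of the gap. UGT1A6, which attaches glucuronic acid to phenols, had a log2 fold change of 0.53 (edgeR adjusted p = 2.13e-05) and UGT1A1, the bilirubin transferase, one of 0.53 as well (edgeR adjusted p = 1.58e-05). The UGT1A genes share their 3′ exons, so the estimated split of reads between them is uncertain. NQO1, a quinone reductase read by both AhR and NRF2, rose 1.24-fold from 497 to 551 CPM at the low dose to 642 to 665 CPM at the medium dose (log2 fold change 0.31, SE 0.05, edgeR adjusted p = 0.00185).

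CYP1B1, the extrahepatic monooxygenase that works beside CYP1A1, had clearly separate levels but was not called. It stood at 159, 104 and 108 CPM at the low dose and at 383, 413 and 395 CPM at the medium dose, with low replicate 1 above its neighbours (log2 fold change 1.68, SE 0.20, edgeR adjusted p = 0.0632). DESeq2's Wald test gave it an adjusted p of 6.85e-13, edgeR without low replicate 1 one of 1.42e-14, and over the 16 alternatives, of which 5 called it, the adjusted p reached 0.303. Its antisense transcript CYP1B1-AS1 was upregulated with a log2 fold change of 1.04, and since the strand setting of the counting is not stated the reads of the pair may not be fully separated. AHRR, the repressor that AhR itself induces, did not pass (5.24 to 5.39 CPM at the low and 5.33 to 6.04 CPM at the medium dose, adjusted p = 0.870).

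**Figure D2:**
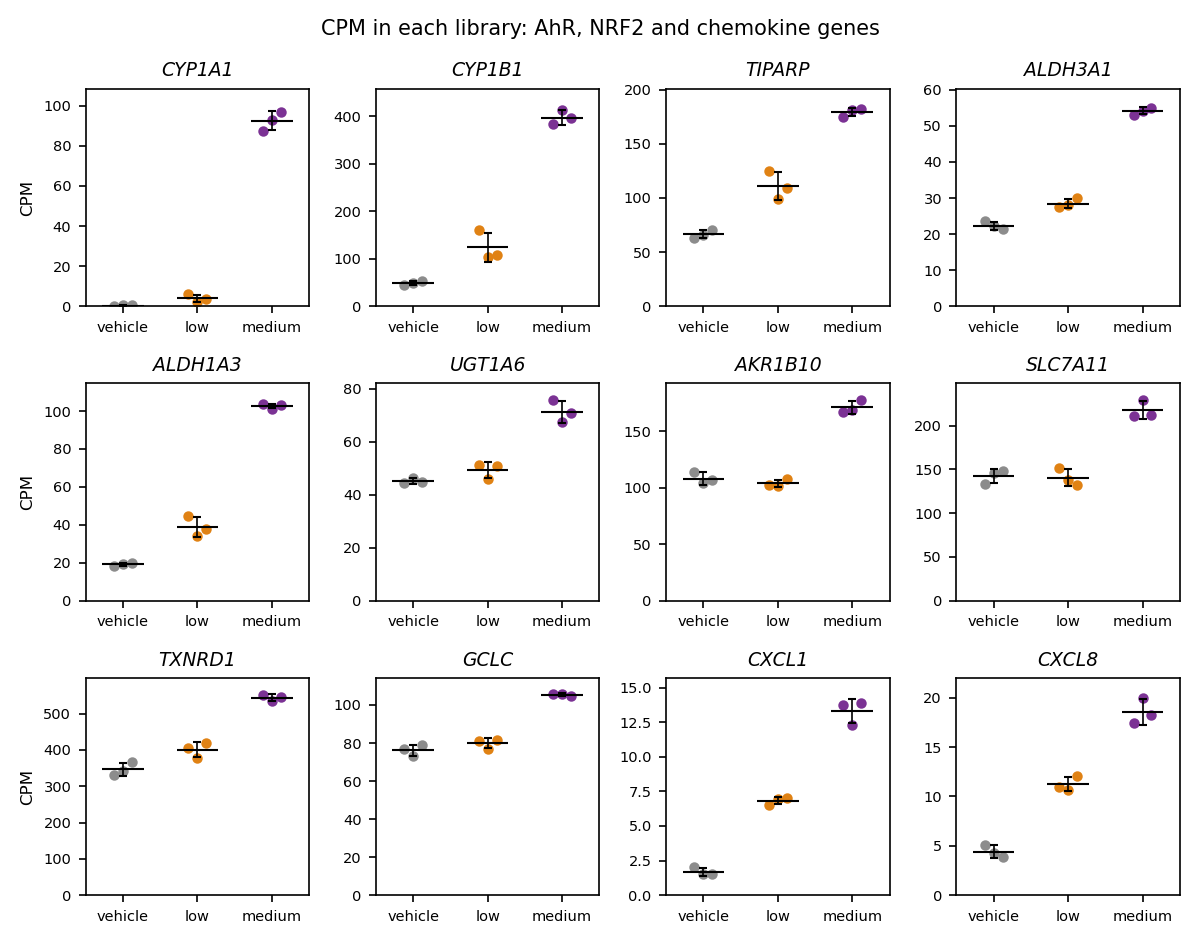
Levels in CPM (linear axis from 0, one panel per gene) of 12 genes in the 3 vehicle, 3 low-dose and 3 medium-dose libraries. A point stands for a library, and a bar and whiskers for the mean and SD. The genes are AhR and NRF2 targets, chemokines and ALDH1A3, which is in none of these lists. CYP1A1 goes from 2.24 to 6.0 CPM at the low dose to 87.4 to 97.1 CPM at the medium dose, and in the other genes plotted the medium points also lie above all low points.

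NRF2 targets were upregulated in the largest number of any list. Of 23 tested, 15 were upregulated and none was downregulated (0.585% and 0.439% over all genes tested). In 20 of the 23 every medium library lay above every low library (6.68% over all genes tested). The log2 fold changes of all 23 were above 0, from 0.02 to 0.72 with a median of 0.32. Without low replicate 3, 15 were again upregulated. Only AKR1B10 and SLC7A11 passed the 1.5-fold minimum. AKR1B10, an aldo-keto reductase that reduces aldehydes and retinals, stood at 103, 101 and 108 CPM at the low dose and at 167, 169 and 177 CPM at the medium dose (log2 fold change 0.72, SE 0.05, edgeR adjusted p = 2.28e-08). SLC7A11, the cystine importer that feeds glutathione synthesis, stood at 151, 138 and 133 CPM and then at 211, 229 and 213 CPM (log2 fold change 0.63, SE 0.05, edgeR adjusted p = 6.92e-07). Neither gene overlapped between the doses.

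Other NRF2 targets, some of which build or recycle glutathione and thioredoxin, were upregulated by less. TXNRD1, thioredoxin reductase, stood at 378 to 418 CPM at the low and 534 to 552 CPM at the medium dose (log2 fold change 0.44, SE 0.05, edgeR adjusted p = 2.36e-05). GCLC, the catalytic subunit of the enzyme that limits glutathione synthesis, stood at 76.9 to 81.8 CPM and then at 104.5 to 106 CPM (log2 fold change 0.40, SE 0.05, edgeR adjusted p = 8.84e-05). Its regulatory subunit GCLM had a log2 fold change of 0.38. In GCLM the lowest medium library, at 82.7 CPM, lay above the highest low library, at 70.9 CPM, so the groups stayed apart. GCLM and the next genes were chosen as list members after their values were seen. Among the other upregulated targets were OSGIN1 at 0.57, SRXN1 (sulfiredoxin, which repairs peroxiredoxins) at 0.32 and the ferritin subunits FTL at 0.32 and FTH1 at 0.25, all as log2 fold changes. AKR1C1, AKR1C2 and AKR1C3, paralogs with similar sequences whose reads are hard to divide, had log2 fold changes of 0.48, 0.54 and 0.48. HMOX1, heme oxygenase, had a log2 fold change of 0.36 and did not pass (adjusted p = 0.0582).

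The list of glutathione and thioredoxin genes as a whole was split. Of 25 tested, 5 were upregulated and 1 was downregulated (0.585% and 0.439% over all genes tested), with a median of 0.02. In 22 of the 25 the highest low-dose value was in low replicate 3, against 5410 of all 15041 genes. The downregulated member was TXNIP, which binds and inhibits thioredoxin, at 51.2, 51.1 and 58.3 CPM at the low dose and 37.0, 35.2 and 37.4 CPM at the medium dose (log2 fold change −0.55, SE 0.06, edgeR adjusted p = 2.13e-05). TXNIP fell, then, while TXNRD1 and SRXN1 rose. Among 22 phase II conjugation and efflux genes, 2 were upregulated (UGT1A1 and UGT1A6), none was downregulated, and the median was 0.09. Of 18 oxidases and redox enzymes of the mucosa, 4 were upregulated, the same aldo-keto reductases that the NRF2 list holds, and NOX1 was downregulated, with a median of 0.02.

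Among aldehyde-oxidising and carbonyl-reducing enzymes, single members were upregulated. ALDH1A3, which makes retinoic acid from retinal, showed the largest difference of its family, from 44.5, 33.9 and 37.8 CPM at the low dose to 103, 101 and 103 CPM at the medium dose (log2 fold change 1.40, SE 0.08, edgeR adjusted p = 9.55e-08). Of 17 aldehyde dehydrogenases tested, ALDH1A3, ALDH3A1 and ALDH3A2 were upregulated, and the family median was −0.00019. Of 10 aldo-keto reductases tested, 4 were upregulated (0.585% over all genes tested), with a median of 0.23. These families were drawn up after their values were seen.

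The chemokines CXCL1 and CXCL8 of the NF-kB list were upregulated, though from low levels. Of 30 NF-kB targets and chemokines tested, 3 were upregulated and none was downregulated (0.585% and 0.439% over all genes tested). The median was 0.13. Every medium library lay above every low library in 11 of the 30 (6.68% over all genes tested) and below in 2 (7.22% over all genes). Without low replicate 3 the upregulated targets numbered 4. CXCL1, a neutrophil chemokine, stood at 6.53, 6.95 and 6.99 CPM at the low dose and at 13.7, 12.3 and 13.9 CPM at the medium dose (log2 fold change 0.96, SE 0.09, edgeR adjusted p = 2.07e-06). CXCL8, interleukin-8, stood at 10.9, 10.7 and 12 CPM and then at 17.4, 19.9 and 18.3 CPM (log2 fold change 0.73, SE 0.08, edgeR adjusted p = 2.13e-05). The groups did not overlap in either chemokine. BIRC3, an inhibitor of apoptosis and NF-kB feedback gene, had a log2 fold change of 0.57 (edgeR adjusted p = 0.00783), and without medium replicate 2 or low replicate 2 its adjusted p was 0.0952 or 0.0909. CCL20, which attracts dendritic cells and lymphocytes, stood at 1.20 to 1.65 CPM at the low and 2.11 to 2.79 CPM at the medium dose and did not pass (log2 fold change 0.79, adjusted p = 0.0591).

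Of 26 MAPK output genes, 3 were upregulated and none was downregulated (0.585% and 0.439% over all genes tested), with a median of 0.07. EREG, a ligand of the EGF receptor, stood at 117, 93.8 and 93.7 CPM at the low dose and at 151, 153 and 147 CPM at the medium dose (log2 fold change 0.56, SE 0.07, edgeR adjusted p = 0.00155). AREG, another ligand of that receptor, stood at 38.2 to 43.4 CPM and then at 52.5 to 59.7 CPM (log2 fold change 0.47), and the early response gene IER3 had a log2 fold change of 0.39. All 3 genes were apart between the doses, with low replicate 1 the highest low library in each. Outside the lists, the strongest upregulated genes included the adhesion receptor ADGRF1 at 42.7 to 51.8 CPM and then 83.0 to 85.9 CPM (log2 fold change 0.87), the serine/threonine kinase PIM1 at 13.5 to 16.4 CPM and then 26.1 to 27.6 CPM (0.84), and the organic cation transporter SLC22A3 at 7.93 to 9.57 CPM and then 16.4 to 17.2 CPM (0.97). LRRN4 had a log2 fold change of 1.14 and the tuft-cell factor POU2F3, the 1 upregulated gene of 28 mucin, goblet and secretory genes, of 1.03, both at under 6 CPM. GPR17 (1.19), LUCAT1 (1.02) and CYP4F11 (0.95) were DEGs with no medium library above 2.06 CPM. POU2F3 lost its call without medium replicate 3 (adjusted p = 0.0542), CYP4F11 without any 1 of the 6 libraries (up to 0.177), GPR17 without any but low replicate 1 (up to 0.186) and LUCAT1 without any but low replicate 2 (up to 0.208).

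Both mitochondrial rRNAs were upregulated while no mitochondrial mRNA passed. MT-RNR1, the 12S rRNA (chrM:648-1601), stood at 1174, 1206 and 1029 CPM at the low dose and at 3409, 3458 and 2982 CPM at the medium dose (log2 fold change 1.53, SE 0.07, edgeR adjusted p = 3.77e-10). MT-RNR2, the 16S rRNA (chrM:1671-3229), stood at 10258, 10080 and 8655 CPM and then at 18690, 18231 and 16693 CPM (log2 fold change 0.89, SE 0.07, edgeR adjusted p = 2.86e-07). The third replicate was the lowest of its group in both rRNAs at both doses, and the doses stayed far apart. The 13 mitochondrially encoded mRNAs had a median of −0.20 between −0.34 and 0.60, with none upregulated or downregulated in edgeR, 1 at an unadjusted p under 0.05 (MT-CO3, −0.30, adjusted p = 0.479) and none called by DESeq2. Low replicate 1 was the highest low library for all 13, and the list's median ran from −0.31 to 0.03 over the alternatives. Mitochondrial genes took 11%, 8.36% and 7.41% of counts at the low dose and 9.74%, 9.45% and 8.72% at the medium dose, so this share overlapped between the doses. The libraries were prepared as mRNA libraries, and how rRNA was removed is not stated in the labels. A part of removal in the rRNA values was not tested, and nuclear copies of both rRNA genes may share their reads.

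**Figure D3:**
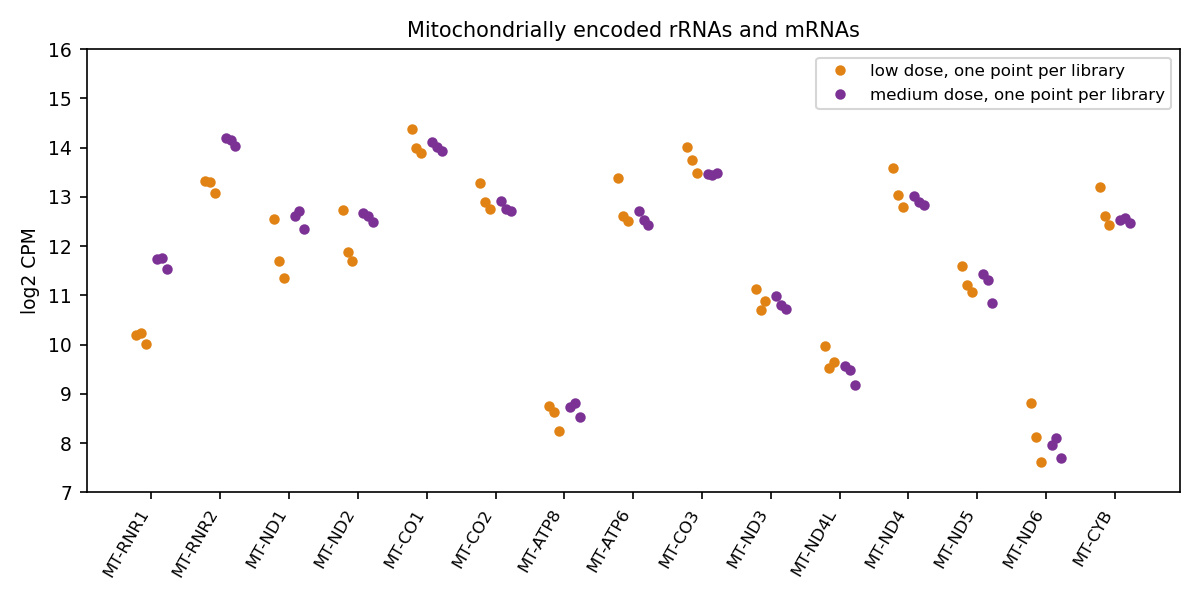
Levels in log2 CPM (y axis) of the 2 rRNAs and the 13 mRNAs of the mitochondrial genome (x axis, in genome order) in the 3 low-dose and 3 medium-dose libraries, with a point per library. All medium points of MT-RNR1 and MT-RNR2 lie above the low points, and no mRNA shows this, with the first low point of each mRNA the highest of its 3.

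The downregulated genes had smaller folds and included an oxidase and carriers and channels for chloride. NOX1, the colonic NADPH oxidase that makes superoxide, stood at 17.1, 16.6 and 18.1 CPM at the low dose and at 11.2, 12.1 and 12.9 CPM at the medium dose (log2 fold change −0.52, SE 0.08, edgeR adjusted p = 9.71e-04). SLC12A2, the sodium-potassium-chloride importer that loads cells for chloride secretion, stood at 827, 812 and 760 CPM and then at 584, 664 and 601 CPM (log2 fold change −0.38, SE 0.06, edgeR adjusted p = 5.75e-04). The groups did not overlap in either gene. CFTR, the apical chloride channel, stood at 171, 179 and 176 CPM and then at 148, 153 and 149 CPM (log2 fold change −0.22, SE 0.05, edgeR adjusted p = 0.0212), and KCNE3, the potassium channel subunit that sustains this secretion, had a log2 fold change of −0.28. These 3 were the calls among the 17 tested of 33 ion channels and pumps, a list written to include the sodium channels bound by aconitine. The other members had too few counts to be tested, and no sodium channel level is given here. In the paper's analysis of its ACD extract aconitine has no measured content (ND), unlike benzoylmesaconine and benzoylaconitine. None of the 17 was upregulated, and the median was −0.05. Over all genes tested 0.439% were downregulated and 0.585% upregulated. CFTR lost its call without any medium replicate or without low replicate 2 (adjusted p from 0.0649 to 0.161), and KCNE3 without medium replicate 1, medium replicate 2 or low replicate 2 (0.0774 to 0.131).

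Of 18 genes of the brush border, digestion and nutrient transport, 15 were below 0. In 10 of the 18 every medium library lay below every low library (7.22% over all genes tested). Of the 18, 1 was downregulated (0.439% over all genes tested), and the median was −0.15. Without low replicate 3 none of the 18 was downregulated and the adhesion molecule CEACAM7 was upregulated. The downregulated gene, SLC5A1, the sodium-glucose cotransporter, stood at 18.8, 18.2 and 21.2 CPM at the low dose and 15.5, 15.1 and 15.6 CPM at the medium dose (log2 fold change −0.33, SE 0.08, edgeR adjusted p = 0.0362). SLC5A1 passed under 6 of the 16 alternatives, with an adjusted p of 0.124 in DESeq2 and up to 0.177 without any 1 of the 6 libraries. Of the mucin, goblet and secretory genes 1 was downregulated, the membrane mucin MUC13 (−0.21), and 20 of 28 lay below 0 with a median of −0.13. MUC13 kept its call only without low replicate 3 among the 6 libraries (adjusted p up to 0.260). Of 17 Wnt targets and crypt stem genes, 2 were downregulated, the guidance receptor EPHB3 (−0.43) and the membrane glycoprotein PROM1 (−0.30), with a median of −0.07. Of 22 p53 targets, 2 were downregulated, BTG2 (−0.39), a brake on proliferation, and SESN1 (−0.39), a stress-induced regulator of mTOR signalling, with a median of −0.03. SESN1 lost its call without medium replicate 1 or 2 (adjusted p = 0.105 and 0.152).

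The 8 downregulated DEGs were KLRK1-AS1 (−0.92), CRYZL2P-SEC16B (−0.78), DEPP1 (−0.76), METTL7A (−0.75), ENSG00000261641 (−0.72), CD200 (−0.65), LINC00261 (−0.63) and DEPTOR (−0.59), given as log2 fold changes. CD200, a surface glycoprotein that restrains myeloid cells, stood at 8.48, 7.10 and 7.22 CPM at the low dose and at 4.96, 4.87 and 4.72 CPM at the medium dose (edgeR adjusted p = 0.00248). LINC00261, a lncRNA of endodermal tissues, stood at 15.6, 17.7 and 14.7 CPM and then at 9.82, 11.1 and 9.98 CPM (edgeR adjusted p = 3.55e-04). DEPTOR, an inhibitor of mTOR, stood at 4.66 to 6.48 CPM and then at 3.66 to 3.97 CPM (edgeR adjusted p = 0.0359). CD200 and LINC00261 stayed called when any 1 library was left out. In DESeq2 the other 6 were not called, with adjusted p-values from 0.0859 to 0.197. KLRK1-AS1 (adjusted p up to 0.154) and METTL7A (up to 0.146) lost their calls without any 1 of the 6, DEPTOR (up to 0.199) without any but low replicate 1, ENSG00000261641 (up to 0.152) without any but low replicate 2, DEPP1 (up to 0.172) without any but low replicates 1 and 3, and CRYZL2P-SEC16B (up to 0.185) without any but medium replicate 3 and low replicate 3. KLRK1-AS1 is antisense and CRYZL2P-SEC16B a readthrough of neighbouring genes, so their reads may belong in part to those neighbours.

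**Figure D4:**
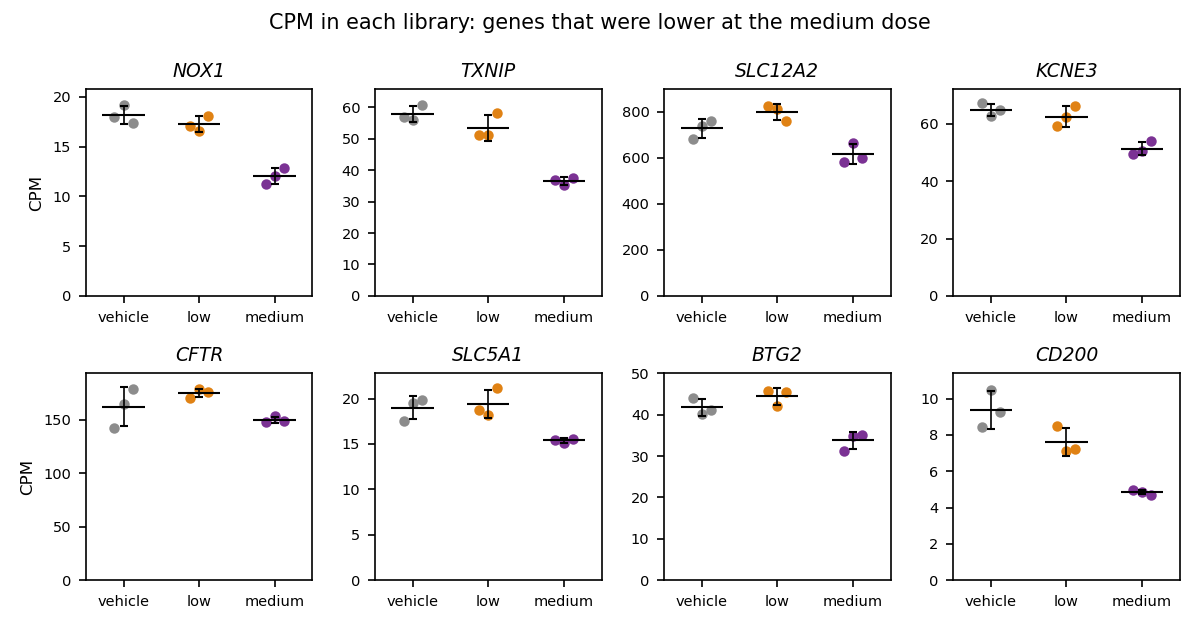
Levels in CPM (linear axis from 0, one panel per gene) of 8 downregulated genes in the 3 vehicle, 3 low-dose and 3 medium-dose libraries, with a point per library and a bar and whiskers for the mean and SD. The medium points of every gene plotted lie below its low points, as for NOX1 at 11.2 to 12.9 against 16.6 to 18.1 CPM.

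Few ATF4 targets, genes of amino acid supply that respond to stress kinases, passed the test. Of 32 tested, 2 were upregulated (0.585% over all genes tested), SLC7A11 and its partner SLC3A2 (log2 fold change 0.23). Above 0 lay 29 of the 32, with a median of 0.07. SLC3A2 kept its call only without low replicate 3 (adjusted p up to 0.301 without the others). ASNS (0.13, adjusted p = 0.540) and PCK2 (0.15, adjusted p = 0.589) did not pass. Among 34 genes of glycolysis and the hypoxia response 1 was upregulated, the glucose transporter SLC2A1 (0.22), and the list median was 0.02. Its call was lost without medium replicate 1 or 3 or low replicate 2 (adjusted p from 0.126 to 0.249). Among 42 genes of the NMDA receptor and long-term potentiation 1 was downregulated (0.439% over all genes tested), the calcium release channel ITPR2 (−0.24). The median was 0.0049, and ITPR2 was the single call. That call was lost without any medium replicate or low replicate 2 (adjusted p from 0.119 to 0.252). GRIN1, the obligate subunit of that receptor, had a log2 fold change of 0.34 and did not pass (adjusted p = 0.574).

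No gene was called in 16 lists. They cover 489 distinct tested genes with log2 fold changes between −0.69 and 0.60, of which 24 had an unadjusted p under 0.05 in edgeR (8.28% over all genes tested) and DESeq2 called none. Without low replicate 3, edgeR called 3 genes in these lists, among them HSPE1 (upregulated, named after its values were seen) and MT-CO3 (downregulated). The stress lists had medians of 0.05 for 23 genes of the unfolded protein response and ER chaperones, 0.05 for 18 cytosolic heat shock genes and 0.02 for 10 metallothionein and zinc transport genes. HSPA1A (0.08, adjusted p = 0.824) and MT2A (0.04, adjusted p = 0.954) lay close to 0. The growth lists had medians of 0.03 for 42 genes of DNA replication and S phase, 0.01 for 42 genes of G2 and mitosis, −0.11 for 14 replication-dependent histones (from −0.69 to 0.24), −0.02 for 78 cytosolic ribosomal proteins and 0.02 for 35 proteasome subunits. The metabolic lists had medians of −0.04 for 33 genes of cholesterol biosynthesis (HMGCS1 at −0.09, adjusted p = 0.744), −0.04 for 22 PPAR targets and fatty acid oxidation genes and −0.02 for 75 nuclear subunits of oxidative phosphorylation. Low replicate 3 was the highest low library for 75 of the 78 ribosomal proteins, 70 of the 75 oxidative phosphorylation subunits and 30 of the 35 proteasome subunits. Interferon-stimulated genes had a median of −0.08, 25 of 33 lay below 0, and low replicate 2 was the highest low library for 26 of them. The remaining lists were 18 circadian clock genes (median −0.04), 29 autophagy and lysosome genes (−0.02) and 4 Pol III and 7SL noncoding RNAs (−0.15).

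**Figure D5:**
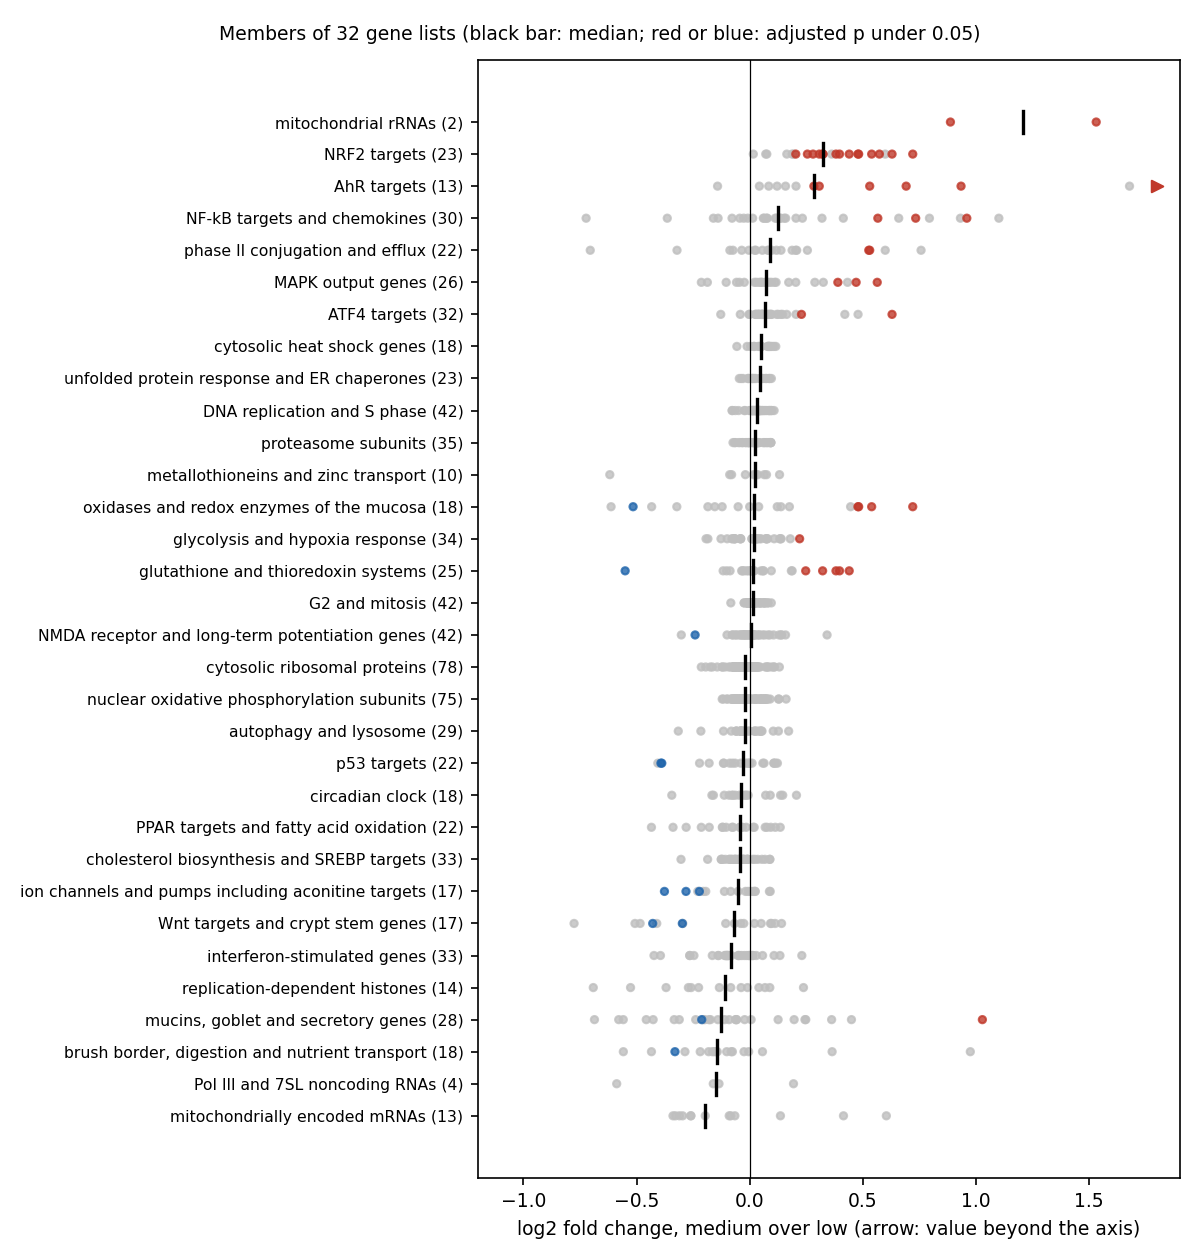
Log2 fold changes of the medium against the low dose for the members of the gene lists, one row per list, with each point a gene, a bar at the median, red or blue for an adjusted p under 0.05 and an arrow for CYP1A1 beyond the axis. Below the 2 mitochondrial rRNAs, NRF2 targets (median 0.32) and AhR targets (median 0.28) lie farthest to the right, while the ribosomal, replication and proteasome lists sit within 0.25 of 0.

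The vehicle libraries place the low dose between no extract and the medium dose for many genes, without a test. For 143 of the 154 genes the low-dose mean lay nearer to the vehicle mean than the medium-dose mean did, on the log2 scale. The 3 means ran upward in order of dose for 66 of the 88 upregulated genes and downward for 38 of the 66 downregulated ones. These counts share the low and medium libraries with the comparison that chose the genes, and their shares over all genes tested were not computed. All 6 called AhR targets had a low mean above the vehicle mean, and in 3 of them every low library lay above every vehicle library, which held for 11.3% of all genes tested. CYP1A1 stood at 0.293 ± 0.158 CPM (SD, n = 3) in vehicle, TIPARP at 66.5 ± 3.91 CPM and CYP1B1 at 49.1 ± 4.07 CPM. The chemokines stood in the same order, with CXCL1 at 1.69 ± 0.299 CPM and CXCL8 at 4.41 ± 0.627 CPM in vehicle, below all their low-dose libraries. Of the 15 called NRF2 targets, 11 had a low mean above the vehicle mean, and 2 had every low library above every vehicle library. In 2 others, the ferritin subunits FTL and FTH1, every low library lay below every vehicle library, which held for 9.41% of all genes tested. AKR1B10 stood at 108 ± 5.38 CPM and SLC7A11 at 143 ± 8.39 CPM in vehicle, and the libraries of both genes overlapped there with the low dose. MT-RNR1, at 1323 ± 87.3 CPM in vehicle, was higher there than at the low dose and far below the medium dose. NOX1 (18.2 ± 0.926 CPM) and TXNIP (57.9 ± 2.61 CPM) overlapped in vehicle with their low-dose libraries. The vehicle mean of SLC12A2 (728 ± 41.6 CPM) lay between its low and medium means, and its highest vehicle library, at 762 CPM, lay above its lowest low library, at 760 CPM. CFTR stood at 142, 165 and 179 CPM in vehicle, a range that held all its low and medium libraries. KCNE3 stood at 62.9 to 67.1 CPM in vehicle, above all its medium libraries.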

How the data were processed

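RNA of HT29 cells was sequenced by the authors as paired-end mRNA libraries made with a directional kit. The paper's methods and the submitters' processing notes name FastQC, Trim Galore, STAR and RSEM 1.3.3 on GRCh38, with the Ensembl 84 annotation. The notes and the paper differ in the versions of Trim Galore and STAR, and the strand setting is not given in the sources used here. The deposited values are the expected counts that the authors obtained from RSEM, not normalized, and they were rounded here to whole numbers. Of the gene IDs with a count in the 6 libraries, 98.3% matched GENCODE 44 (GRCh38), from which gene coordinates come. Promoter windows come from RefSeq (GRCh38.p14).

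The 6 libraries were grouped by the dose in their labels and fitted alone in edgeR 4.0.16 (R 4.3.3) with filterByExpr, TMM scaling and the robust quasi-likelihood test, and p-values were adjusted by Benjamini-Hochberg over the 15041 genes tested. Standard errors come from the F statistic. A gene was called at an adjusted p under 0.05, and a DEG also had a fold over 1.5. Tables were made in Python 3.11.15. By symbol, 975 genes of the 32 lists were found, of which 837 were tested, and some genes are in more than 1 list. The lists, the promoter motifs and the genes named whatever their values were chosen with earlier results of these data known. By the rule for named genes these were, in each direction, up to 15 DEGs with the largest log2 fold changes, a mean reaching 1 CPM and no overlap between the doses, then the 3 smallest p under 0.05 in each list, and 20 genes fixed by name. Other genes are named as list or family members chosen after their values were seen. Some list members are not reported here by name. Another motif, TGATGNAA (the core of CEBP-ATF response elements), was in 1.74% of windows, 1.54% of those upregulated and 2.00% of those downregulated.

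No 2 libraries of the same dose were duplicates, and pairs across doses were not part of this check. Same-numbered libraries of the doses did not deviate together (correlations of −0.085, −0.077 and 0.061 over 10657 genes), so replicate numbers were not used as pairs. Differently numbered pairs ran from −0.153 (medium replicate 3, low replicate 1) to 0.218 (medium replicate 2, low replicate 1). With 3 libraries per dose these values cannot settle whether a batch was shared. Alternatives were DESeq2 1.42.0, other scaling and filters, other sets of libraries, a replicate block, each library left out, and an offset for exon length and GC content, which was added after seeing the data. Counts cover each library's own sequencing depth, and low genes have wide errors.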

Additional observations from a re-analysis of the deposited data

How the results depend on the processing

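The 52 called genes among those named kept their sign under each of the 16 alternatives that gave them a value (DESeq2 gave one for 49, the strict filter for 51). None of these genes overlapped between the doses, so a turned sign was hardly possible and the kept sign shows little. The medians of 11 of the 32 lists lay on both sides of 0 over the alternatives, between −0.31 and 0.09 in all, interferon-stimulated genes and mitochondrial mRNAs among them. Of the 52 genes, 16 were called under every alternative, 30 under all but the fit of all 12 libraries, and 32 whichever single library of the 6 was left out. The 33 DEGs became 154 with no minimum fold, 89 (52 up, 37 down) with no filter on low counts, 55 (41 up, 14 down) with the replicate block, and 16 (15 up, 1 down) with all 12 libraries in the fit, which hold an irregular high-dose library. The 154 calls became 290 with no filter, 89 with the vehicle libraries in the fit and 22 with all 12, and were 228 with the replicate block. Same-numbered libraries did not deviate together, so the block was not read as paired evidence, though 3 libraries per dose cannot settle whether a batch was shared. In edgeR with this block CYP1A1 had an adjusted p of 0.177. DESeq2 gave 23 DEGs, 20 of them shared, and 126 calls, 112 shared, with 43 down against 66. Leaving out 1 library gave 25 (without medium replicate 3) to 43 DEGs (without low replicate 1) and 71 (without medium replicate 3) to 163 calls (without low replicate 3), with 79, 81 and 83 calls without medium replicate 2, low replicate 2 and medium replicate 1. The cause was not tested beyond the smaller number of libraries. DESeq2 size factors, and library sizes without mitochondrial genes, left 33 DEGs and 154 calls. An offset for exon length and GC content, added after seeing the data, gave 36 and 212. Of 512 list medians recomputed, 23 moved by more than the spread between replicates, in 13 lists. Depth limits genes under about 1 CPM, and groups of 3 limit differences under the smallest called, 0.20 on the log2 scale.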

Other observations

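Of the 154 genes that differed between the doses, 45 were in the gene lists and 109 were not. The genes of the 109 given here were singled out after their values were seen. TRIM16 and its paralog TRIM16L had log2 fold changes of 0.33 and 0.58 (edgeR adjusted p = 0.00732 and 3.55e-04), and their near-identical copies may share reads. PTGS2, the inducible cyclooxygenase, stood at 20.7 to 25 CPM at the low dose and at 27 to 30.8 CPM at the medium dose (log2 fold change 0.34, edgeR adjusted p = 0.0279). FGF19, a hormone made by intestinal epithelium that restrains bile acid synthesis, stood at 71.4 to 76.0 CPM and then at 85.2 to 94.0 CPM (log2 fold change 0.27, edgeR adjusted p = 0.0133). Among downregulated genes, the collagen-binding integrin subunit ITGA1 stood at 85.2 to 89.6 CPM and then at 68.9 to 72.6 CPM (log2 fold change −0.31, edgeR adjusted p = 0.00155). In vehicle ITGA1 stood at 65.2, 80.4 and 82.1 CPM, below all its low libraries and on both sides of its medium libraries. SLC40A1, ferroportin, the iron exporter, stood at 122 to 133 CPM and then at 107 to 110 CPM (log2 fold change −0.24, edgeR adjusted p = 0.0196). The ferritin subunits FTL (0.32) and FTH1 (0.25), which store iron, went the other way between these doses. In both ferritin genes, however, every low library lay below every vehicle library. FTH1 had means of 4359 CPM in vehicle, 3653 CPM at the low and 4359 CPM at the medium dose. FTL had means of 2637, 2296 and 2875 CPM in the same order.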
